A study of Caenorhabditis elegans with 16 samples.

Results

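Reads on the 3 terminal uridylyltransferase genes of *C. elegans*, *cde-1*, *pup-2* and *pup-3*, were followed in 10 small RNA libraries. The genes were taken by name from the 20535 protein-coding genes in the count files, so they make up 3 of 20535. The choice used names and no threshold on reads, but it was made with earlier results of these data known. *cde-1* is listed as WBGene00019629 (transcript K10D2.3, also named *cid-1*), *pup-2* as WBGene00019628 (K10D2.2) and *pup-3* as WBGene00019082 (F59A3.9). Each gene had 1 row in the files, which holds the reads on the same strand as the transcript (sense) and those on the opposite strand (antisense).

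Terminal uridylyltransferases, or poly(U) polymerases, add uridines to the 3′ ends of RNAs, and such tails mark many RNAs for decay. CDE-1 is known for uridylating siRNAs bound by the Argonaute CSR-1 in the germ line and the embryo, and PUP-2 for acting with LIN-28 on the precursor of *let-7*. Antisense small RNAs on worm genes are mostly secondary siRNAs that RNA-dependent RNA polymerases make on mRNA templates and that Argonautes carry, whereas sense reads are largely pieces of the transcript itself.

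The study asked what the loss of CDE-1 does to small RNAs, and 5 comparisons of *cde-1(tm936)* with a control were made, each with 1 library per genotype. Total small RNA came from *cde-1(tm936)* and from N2 (wild type) young adults. NRDE-3 was precipitated from *cde-1(tm936);GFP::NRDE-3* and *GFP::NRDE-3* embryos, and from L3 larvae that carried *GFP::NRDE-3* in an *eri-1(mg366);cde-1(tm936)* or an *eri-1(mg366)* background, so that both members of the larval pair lack *eri-1*, a gene needed for endogenous siRNAs. The title of the larval *cde-1* library prints another allele of *cde-1* than its genotype label, which was followed. HRDE-1 and WAGO-1 were precipitated from *cde-1(tm936);GFP::HRDE-1* and *GFP::HRDE-1*, and from *cde-1(tm936);GFP::WAGO-1* and *GFP::WAGO-1* young adults. Each tagged Argonaute was expressed from the promoter of its own gene and precipitated with an anti-FLAG antibody. Animals were grown at 20 °C, on HT115 bacteria for the *eri-1* pair and on OP50 for the others. Without a second library of any genotype there was no replicate check and no test between genotypes, and the 95% intervals given below cover counting error only. In such bulk samples fewer cells of a type and less RNA per cell cannot be told apart.

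The libraries held between 5200610 and 9919222 counted reads, of which sense rRNA took between 10.2% and 66.1%. Values are reads per 1000000 (RPM) over the counted reads less sense rRNA, and these denominators lay between 3043513 and 6813180 reads. Sense reads on protein-coding genes made up between 5.85% and 63.5% of this denominator. The *let-7* miRNA, which appears late in larval life, took 0.125% and 0.167% of miRNA reads in the *cde-1(tm936)* and control embryo libraries, and between 0.848% and 3.43% in the other 8. The embryonic *mir-35* family took 11.3% in *cde-1(tm936)* and 18.6% in N2 total RNA. Mutant first, it took 19.0% and 15.2% in the embryo IPs and 0.419% and 0.337% in the *eri-1* IPs. It took 1.48% and 1.83% in the HRDE-1 IPs, and 2.33% and 4.26% in the WAGO-1 IPs. The part of stage or embryo content in the ratios was not tested. Over 6 germline markers (*glh-1*, *pgl-1*, *pgl-3*, *gld-1*, *mex-5*, *oma-1*) the summed sense RPM in *cde-1(tm936)* over control was 0.808 in total RNA, 0.249 in the embryo NRDE-3 IPs, 0.505 in the *eri-1* NRDE-3 IPs, 0.813 in the HRDE-1 IPs and 0.733 in the WAGO-1 IPs. The median gene with at least 50 sense reads in either library had ratios of 1.00, 0.269, 0.712, 0.908 and 0.749, in the same order. Single markers in total RNA ranged from 0.609 (*oma-1*) to 1.10 (*pgl-1*). No marker reached 50 sense reads in either embryo library. The part of germline content in the ratios of the 3 genes was not tested.

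In the annotation used (Ensembl release 115, WBcel235), *cde-1* lies on the plus strand of chromosome III between 5173922 and 5180507, with 12 exon blocks that sum to 4802 nt. *pup-2* follows on the same strand between 5185920 and 5188587, 5412 bases further on, with 7 exon blocks and 2325 nt. *pup-3* lies on the minus strand of chromosome I between 5530614 and 5534649, with 8 exon blocks and 1733 nt. No other annotated gene overlaps any of them. The files give reads per whole transcript, so where on *cde-1* the reads of the mutant fell, in relation to the deletion, was not analysed here.

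Sense reads on *cde-1*, the gene carrying the deletion, were lower in the *cde-1(tm936)* library of every comparison, but were not at 0. In total RNA there were 95 sense reads in *cde-1(tm936)* and 629 in N2, which is 17.0 and 98.2 RPM. In the *eri-1* NRDE-3 IPs there were 124 in the *eri-1;cde-1* library and 538 in the *eri-1* library (22.2 and 104 RPM). The HRDE-1 IPs had 167 in the *cde-1(tm936)* library and 339 in the control (24.5 and 80.3 RPM). In these 3 pairs a residual signal of 95 to 167 reads remained in the mutant. The WAGO-1 IPs had 82 in the *cde-1(tm936)* library and 249 in the control (12.0 and 43.5 RPM). The embryo NRDE-3 IPs held the fewest, 2 in the *cde-1(tm936)* library and 35 in the control (0.348 and 11.5 RPM).

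The ratio of *cde-1* sense RPM, *cde-1(tm936)* over control, was therefore 0.174 in total RNA (95% interval 0.138 to 0.216). It was 0.213 in the *eri-1* NRDE-3 IPs (0.174 to 0.260), 0.306 in the HRDE-1 IPs (0.253 to 0.369) and 0.276 in the WAGO-1 IPs (0.213 to 0.356). In the embryo IPs the 2 mutant reads gave 0.0302, with a wide interval of 0.00352 to 0.118. All 5 intervals lay below 1. Written the other way round, *cde-1* sense RPM was 5.76-fold lower in *cde-1(tm936)* in total RNA and 3.27-fold lower in the HRDE-1 IPs.

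These ratios were read against those of all protein-coding genes with at least 50 sense reads in either library, with 1 read added to both. *cde-1* passed this filter in 4 comparisons and was at least 2-fold lower in all 4. The share of all genes tested that were at least 2-fold lower was 1.51% in total RNA, 11.2% in the *eri-1* NRDE-3 IPs, 4.05% in the HRDE-1 IPs and 14.5% in the WAGO-1 IPs. In total RNA only 3 of 8477 genes had a lower sense ratio than *cde-1*, namely *ZK228.4*, *F44E7.5* and *zip-11*. In the IPs *cde-1* stood less far out, with 56 of 7838 genes below it in the *eri-1* NRDE-3 pair, 86 of 5264 in the HRDE-1 pair and 56 of 4401 in the WAGO-1 pair. In the embryo IPs 91.3% of the genes tested were at least 2-fold lower and the median gene had a ratio of 0.269, so a low sense ratio is the rule there. *cde-1*, with 35 reads at most, was under the filter in that pair, and 1 of 1380 genes tested had a lower ratio than it.

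The median sense ratio over all genes tested was 1.00 in total RNA, 0.712 in the *eri-1* NRDE-3 IPs, 0.908 in the HRDE-1 IPs and 0.749 in the WAGO-1 IPs. Scaling by TMM, which sets the bulk of the genes near a ratio of 1, changed the balance of genes past 2-fold. In the embryo IPs 20 genes were higher and 1260 lower by RPM, and 107 higher and 76 lower by TMM. In the *eri-1* IPs these counts were 68 and 876 by RPM and 141 and 210 by TMM, in the HRDE-1 IPs 202 and 213 by RPM and 257 and 179 by TMM, and in the WAGO-1 IPs 198 and 640 by RPM and 473 and 183 by TMM. With TMM the sense ratio of *cde-1* was 0.113 in the embryo IPs, 0.300 in the *eri-1* IPs and 0.366 in the WAGO-1 IPs.

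**Figure D1:**
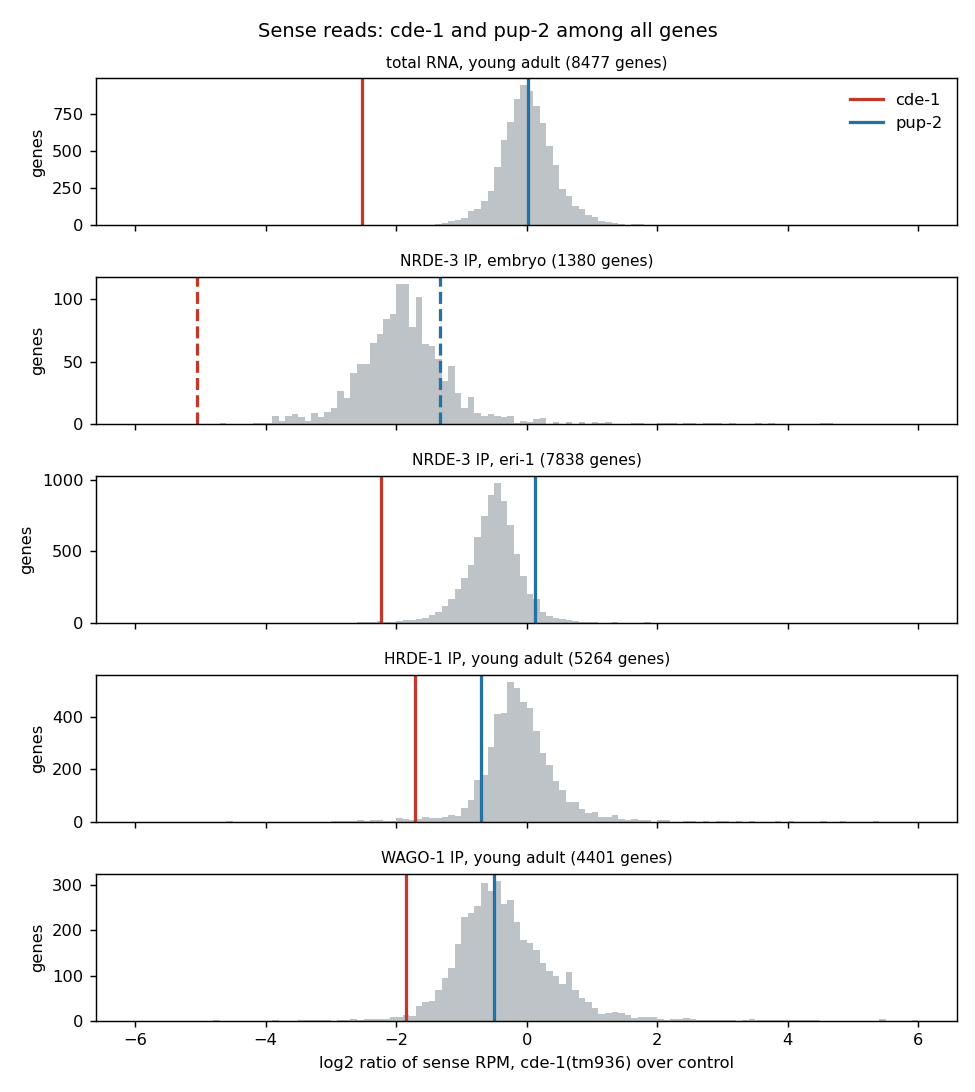
Histograms of the log2 ratio of sense RPM, *cde-1(tm936)* over control (x axis), over all protein-coding genes with at least 50 sense reads in either library (y axis, number of genes), with 1 panel per comparison. The red line marks *cde-1* and the blue line *pup-2* (dashed where under 50 reads). Bars have 1 read added to both libraries and lines have none. In the embryo panel the *cde-1* line therefore lies at -5.05, left of *scl-12* at -4.66, the gene counted below *cde-1* with 1 read added. *cde-1* lies at the far low end in total RNA, with 3 of 8477 genes below it, and *pup-2* near the centre there.

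*pup-2*, the neighbour of *cde-1* on the same strand, allows a ratio within each library that no denominator enters. For each sense read on *pup-2* there were 0.182 sense reads on *cde-1* in *cde-1(tm936)* total RNA and 1.06 in N2, an odds ratio of 0.171 (0.132 to 0.220). The same quotient was 0.599 in the *eri-1;cde-1* NRDE-3 IP and 3.06 in the *eri-1* NRDE-3 IP (odds ratio 0.196, 0.147 to 0.262). In the HRDE-1 IPs it was 0.699 in *cde-1(tm936)* and 1.41 in the control (0.495, 0.379 to 0.645). Each quotient was lower in the mutant, and the odds ratio was closer to 1 in the HRDE-1 IPs than in total RNA. It also depends on *pup-2*, whose own sense RPM ratio was 1.01 in total RNA, 0.618 in the HRDE-1 IPs and 0.705 in the WAGO-1 IPs. In the WAGO-1 IPs the quotient was 0.713 in *cde-1(tm936)* and 1.82 in the control (0.393, 0.272 to 0.566). In the embryo IPs it was 0.0833 in *cde-1(tm936)* and 1.09 in the control (0.0780, 0.00829 to 0.356).

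The sense level of *pup-2* itself did not differ beyond counting error in total RNA, with 523 reads in *cde-1(tm936)* and 592 in N2 (93.9 and 92.5 RPM, ratio 1.01, 0.901 to 1.14). In the *eri-1* NRDE-3 IPs there were 207 in the *eri-1;cde-1* library and 176 in the *eri-1* library (1.09, 0.885 to 1.34). This interval lay above the median gene's 0.712, 94.3% of the genes tested had a lower sense ratio than *pup-2* in that pair, and the ratio was 1.53 with TMM scaling and 0.830 over antisense protein-coding reads. The HRDE-1 IPs had 239 in *cde-1(tm936)* and 240 in the control, which at their depths is a ratio of 0.618 (0.515 to 0.743). *pup-2* thus had a lower sense RPM in the mutant HRDE-1 IP, with an interval that also lay below the median gene's 0.908. The WAGO-1 IPs had 115 in *cde-1(tm936)* and 137 in the control (0.705, 0.545 to 0.909) and the embryo IPs 24 in *cde-1(tm936)* and 32 in the control (0.397, 0.224 to 0.695). In the last 2 pairs the median gene, at 0.749 and 0.269, lay inside the interval of *pup-2*, and with TMM scaling the embryo ratio turned to 1.48.

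*pup-3* had few sense reads everywhere, from 2 to 36 in a library, and passed the filter of 50 reads in none. Total RNA held 36 in *cde-1(tm936)* and 36 in N2 (ratio 1.15, 0.703 to 1.88). The *eri-1* NRDE-3 IPs held 10 in the *eri-1;cde-1* library and 6 in the *eri-1* library (1.54, 0.507 to 5.16). The HRDE-1 IPs held 14 in *cde-1(tm936)* and 7 in the control (1.24, 0.469 to 3.63). In the WAGO-1 IPs there were 15 in *cde-1(tm936)* and 28 in the control, a ratio of 0.450 (0.223 to 0.871). With 2 reads in each embryo library no ratio is given. Only the WAGO-1 interval excluded 1. In total RNA the interval stayed within 2-fold of equality, whereas at the depths of the *eri-1* and HRDE-1 IPs a 2-fold difference was not detectable.

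Of the 13 protein-coding genes other than *pup-2* within 20 kb of *cde-1*, 9 had enough sense reads in total RNA and none of them passed 2-fold in either direction, while 1.51% of all genes were lower. The count was 0 of 8 in the *eri-1* NRDE-3 IPs and 0 of 8 in the HRDE-1 IPs. One neighbour was lower in the WAGO-1 IPs, *ulp-1* (a SUMO protease, ratio 0.337), of 7 tested, and both genes tested in the embryo IPs were lower, *emb-8* (0.255) and *grwd-1* (0.159), where 91.3% of genes were. The low sense ratio of *cde-1* in total RNA and in the *eri-1* and HRDE-1 IPs was thus not shared by the tested genes around it.

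Per length, the order of the sense levels changed with the genotype. In total RNA *pup-2* had 40.4 sense RPM per kilobase of exon (RPKM) in *cde-1(tm936)* and 39.8 in N2, and *cde-1* had 3.55 in *cde-1(tm936)* and 20.5 in N2. *pup-3* had 3.73 in *cde-1(tm936)* and 3.24 in N2. *cde-1* was therefore well above *pup-3* in N2 and at about the same sense level as *pup-3* in the mutant. Ranked per length, *cde-1* lay above 47.5% of all genes in *cde-1(tm936)* total RNA and above 83.6% in N2. In the HRDE-1 IPs it lay above 75.0% in *cde-1(tm936)* and above 91.4% in the control.

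**Figure D2:**
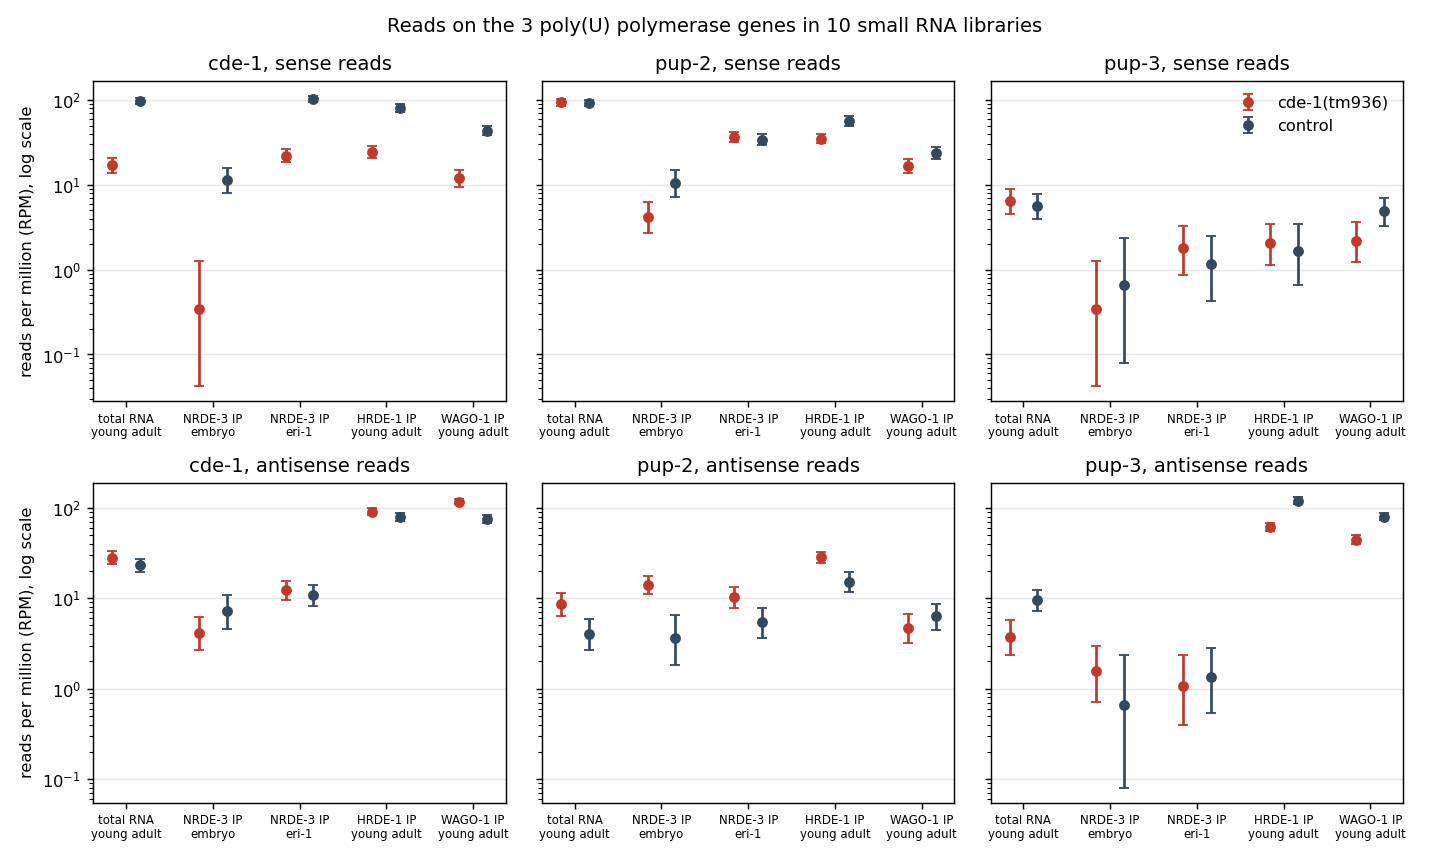
Sense (top) and antisense (bottom) RPM on a log scale for *cde-1*, *pup-2* and *pup-3*, by comparison along the x axis, with *cde-1(tm936)* libraries in red to the left of their controls in dark blue. Each point is 1 library and bars are 95% exact Poisson intervals of the count; the sense level of *cde-1* was lower in the mutant in all 5 pairs, and the antisense level of *pup-3* was highest in the HRDE-1 and WAGO-1 IPs.

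Antisense reads on *cde-1* did not share the fall of its sense reads. There were 157 in *cde-1(tm936)* total RNA and 149 in N2 (28.2 and 23.3 RPM), a ratio of 1.21 (0.961 to 1.53). The *eri-1* NRDE-3 IPs had 69 in the *eri-1;cde-1* library and 56 in the *eri-1* library (1.14, 0.789 to 1.65), and the HRDE-1 IPs 618 in *cde-1(tm936)* and 336 in the control (1.14, 0.998 to 1.31). None of these 3 intervals excluded 1, and with TMM scaling the ratios were 0.822, 0.677 and 0.890. The WAGO-1 IPs had 796 in *cde-1(tm936)* and 429 in the control (117 and 75.0 RPM), a ratio of 1.56 (1.38 to 1.76). The embryo IPs had 24 in *cde-1(tm936)* and 22 in the control (4.17 and 7.23 RPM), a ratio of 0.577 (0.310 to 1.08). WAGO-1 was thus the pair in which antisense reads on *cde-1* were higher in the mutant beyond counting error.

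Taken as a share of the reads on the gene, antisense reads were the majority on *cde-1* in mutant total RNA, at 62.3% (exact binomial interval 56.0 to 68.3) in *cde-1(tm936)* and 19.2% (16.4 to 22.1) in N2. The share was 35.8% in the *eri-1;cde-1* NRDE-3 IP and 9.43% in the *eri-1* NRDE-3 IP. It was 78.7% in the mutant HRDE-1 IP and 49.8% in its control, and 90.7% in the mutant WAGO-1 IP and 63.3% in its control. In the embryo IPs it was 92.3% of 24 antisense and 2 sense reads in the mutant, and 38.6% in the control. The intervals of mutant and control did not overlap in any of the 5 pairs. Over all protein-coding genes the antisense share was also higher in each mutant library. It was 18.3% in *cde-1(tm936)* and 14.9% in N2 total RNA, and 20.6% and 12.6% in the *eri-1* IPs. In the HRDE-1 IPs it was 74.4% and 72.1%, in the WAGO-1 IPs 82.4% and 80.3%, and in the embryo IPs 88.3% and 78.3%.

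By RPM, the antisense ratios of most genes past the filter of 50 reads lay above 1. The median ratio over the protein-coding genes with at least 50 antisense reads in either library was 1.49 in total RNA, 1.22 in the embryo NRDE-3 IPs, 1.78 in the *eri-1* NRDE-3 IPs, 1.29 in the HRDE-1 IPs and 1.06 in the WAGO-1 IPs. The share of genes at least 2-fold higher in *cde-1(tm936)* was 22.8%, 27.1%, 44.6%, 27.7% and 15.5% in these comparisons, in the same order. The share at least 2-fold lower was 6.94%, 21.6%, 17.5%, 12% and 16.4%. With TMM scaling, 223 genes were higher and 532 lower in total RNA, where RPM gave 849 and 258. In the *eri-1* IPs TMM gave 634 higher and 817 lower, against 1315 and 517 by RPM, and in the HRDE-1 IPs 1277 and 1263, against 1944 and 841 by RPM. Ratios of antisense reads are therefore read below beside the median gene of the same pair.

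By this measure *cde-1* lay below the median gene in the *eri-1* and embryo NRDE-3 IPs, where its whole interval was under 1.78 and 1.22, and above it in the WAGO-1 IPs, where its interval was over 1.06. With 1 read added, 34.7% of the genes tested had a lower antisense ratio than *cde-1* in the *eri-1* IPs and 74.3% in the WAGO-1 IPs. In the embryo IPs, where *cde-1* was under the filter, 24.6% had. In total RNA and in the HRDE-1 IPs the median gene was inside the interval of *cde-1*. None of the 4 comparisons in which *cde-1* passed the antisense filter reached 2-fold.

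Antisense reads on *pup-2* had higher RPM in the *cde-1(tm936)* library of 4 of the 5 pairs, with intervals above 1 in all 4. The embryo NRDE-3 IPs showed the largest ratio, with 81 reads in *cde-1(tm936)* and 11 in the control (14.1 and 3.61 RPM), a ratio of 3.90 (2.07 to 8.11). Total RNA had 48 in *cde-1(tm936)* and 26 in N2 (8.61 and 4.06 RPM, ratio 2.12, 1.29 to 3.56). The *eri-1* NRDE-3 IPs had 58 in the *eri-1;cde-1* library and 28 in the *eri-1* library (1.92, 1.20 to 3.12). In these last 2 pairs the median gene lay inside the interval. The HRDE-1 IPs had 192 in *cde-1(tm936)* and 64 in the control (28.2 and 15.2 RPM, ratio 1.86, 1.40 to 2.51). The WAGO-1 IPs went against the rest, with 32 in *cde-1(tm936)* and 36 in the control (4.70 and 6.29 RPM, ratio 0.746, 0.449 to 1.24).

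*pup-2* had at least 50 antisense reads in either library in 3 comparisons and was at least 2-fold higher in 1 of them, the embryo pair, where 27.1% of all genes tested were. In the embryo and *eri-1* pairs only the mutant library reached 50 reads, so the filter favoured a higher call. In the embryo and HRDE-1 IPs its whole interval lay above the median gene. With 1 read added, 91.0% and 68.0% of the genes tested had a lower antisense ratio than *pup-2* in these pairs. The share of antisense reads on *pup-2* in the embryo IPs was 77.1% (67.9 to 84.8) in *cde-1(tm936)* and 25.6% (13.5 to 41.2) in the control, beside 88.3% and 78.3% over all protein-coding genes. In the HRDE-1 IPs the share on *pup-2* was 44.5% in *cde-1(tm936)* and 21.1% in the control. In the WAGO-1 IPs it was 21.8% in *cde-1(tm936)* and 20.8% in the control. Counted over all reads, sense rRNA included, the embryo antisense ratio was 8.52, since sense rRNA took 25.9% of the mutant embryo library and 66.1% of its control.

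*pup-3*, the uridylyltransferase gene on chromosome I, showed lower antisense RPM in the mutants of the young adult pairs. Total RNA had 21 antisense reads in *cde-1(tm936)* and 61 in N2 (3.77 and 9.53 RPM), a ratio of 0.396 (0.229 to 0.659). The HRDE-1 IPs had 417 in *cde-1(tm936)* and 506 in the control (61.3 and 120 RPM), a ratio of 0.512 (0.448 to 0.584). The WAGO-1 IPs had 303 in *cde-1(tm936)* and 455 in the control (44.5 and 79.6 RPM, ratio 0.559, 0.482 to 0.648). The intervals of these 3 pairs lay below both 1 and the median gene. With 1 read added, 5.19% of the genes tested had a lower antisense ratio than *pup-3* in total RNA, 12.5% in the HRDE-1 IPs and 19.4% in the WAGO-1 IPs. The *eri-1* NRDE-3 IPs had 6 reads in the *eri-1;cde-1* library and 7 in the *eri-1* library (0.793, 0.220 to 2.75) and the embryo IPs 9 in *cde-1(tm936)* and 2 in the control (2.38, 0.493 to 22.6), too few to give a direction.

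In the 3 comparisons where *pup-3* passed the antisense filter, it was at least 2-fold lower in 1, total RNA, where 6.94% of all genes tested were. Only the N2 library reached 50 reads there, so the filter favoured a lower call. The HRDE-1 and WAGO-1 ratios were short of 2-fold by RPM. The HRDE-1 ratio passed it with TMM (0.399), with median-of-ratios (0.392) and over antisense protein-coding reads (0.477), and the WAGO-1 ratio passed it over miRNA reads (0.480). Nearly all reads on *pup-3* in those IPs were antisense, at 96.8% in the mutant and 98.6% in the control HRDE-1 IP, and at 95.3% in the mutant and 94.2% in the control WAGO-1 IP. In total RNA the antisense share was 36.8% (24.4 to 50.7) in *cde-1(tm936)* and 62.9% (52.5 to 72.5) in N2.

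**Figure D3:**
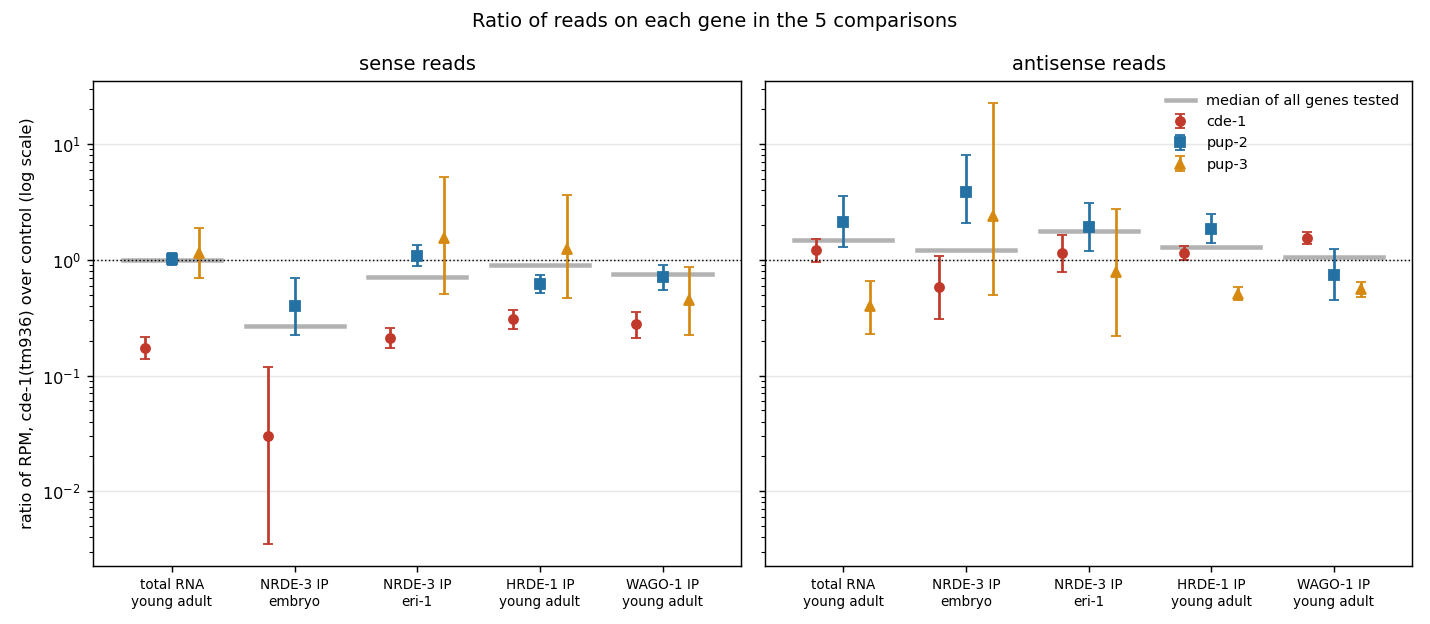
Ratio of RPM, *cde-1(tm936)* over control, on a log scale for *cde-1*, *pup-2* and *pup-3* in the 5 comparisons, for sense (left) and antisense (right) reads. Points are single pairs of libraries with 95% exact conditional binomial intervals, and grey bars mark the median of all genes tested; on the antisense side *pup-2* lay above 1 in 4 pairs and *pup-3* below 1 in total RNA and in the HRDE-1 and WAGO-1 IPs.

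Set against each other within a library, antisense reads on the paralogs moved apart. For each antisense read on *pup-3* there were 2.29 on *pup-2* in *cde-1(tm936)* total RNA and 0.426 in N2, an odds ratio of 5.30 (2.56 to 11.3). In the HRDE-1 IPs there were 0.460 in *cde-1(tm936)* and 0.126 in the control, an odds ratio of 3.64 (2.64 to 5.05). In the WAGO-1 IPs the odds ratio was 1.33 (0.784 to 2.26), in the *eri-1* NRDE-3 IPs 2.39 (0.624 to 9.51) and in the embryo IPs 1.63 (0.152 to 9.51). The difference between *pup-2* and *pup-3* exceeded counting error in 2 of 5 pairs.

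The same odds ratio for antisense reads on *cde-1* over *pup-3* was 3.05 (1.73 to 5.55) in total RNA, 2.23 (1.85 to 2.70) in the HRDE-1 IPs and 2.78 (2.30 to 3.37) in the WAGO-1 IPs. It was 1.43 (0.388 to 5.48) in the *eri-1* IPs and 0.248 (0.0236 to 1.39) in the embryo IPs, where the interval spanned 1. For *pup-2* over *cde-1* it was 6.64 (2.66 to 17.5) in the embryo IPs, 1.75 (1.01 to 3.10) in total RNA, 1.63 (1.18 to 2.27) in the HRDE-1 IPs and 0.479 (0.284 to 0.806) in the WAGO-1 IPs. In the *eri-1* IPs it was 1.68 (0.914 to 3.11), with an interval that spanned 1. Relative to *cde-1*, therefore, antisense reads on *pup-2* were higher in mutant total RNA and in the mutant embryo and HRDE-1 IPs, and lower in the mutant WAGO-1 IP.

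The Argonaute IPs, which were made from different stages and strains, also differed in their antisense levels on the 3 genes. Antisense RPM on *pup-3* in the controls was 120 in HRDE-1 and 79.6 in WAGO-1 IPs, against 9.53 in N2 total RNA, 1.35 in the *eri-1* NRDE-3 IP and 0.657 in the embryo NRDE-3 IP. Neighbours in this order differed beyond counting error except the NRDE-3 IPs, which did not (ratio 2.06, 0.392 to 20.3). All antisense protein-coding reads made up 61.3% of the denominator in the control HRDE-1 IP and 68.8% in the control WAGO-1 IP. They made up 11.1% in N2 total RNA, 9.05% in the *eri-1* NRDE-3 IP and 45.6% in the control embryo NRDE-3 IP. *pup-3* antisense RPM was 12.6-fold (9.63 to 16.7) that of N2 total RNA in the control HRDE-1 IP and 8.35-fold (6.38 to 11.1) in the control WAGO-1 IP. The median gene's ratios were 4.77 and 3.94 in the same pairs of libraries, so *pup-3* exceeded the median gene in both IPs. Medians of IP over total RNA are over genes with at least 50 antisense reads in either library. With more antisense reads in the IPs, this filter favours genes high in the IP. A gene below such a median may therefore not be low among all genes. In the mutant the values for *pup-3* were 16.3-fold (10.5 to 26.6) and 11.8-fold (7.58 to 19.3), beside median genes at 4.49 and 2.54. All antisense protein-coding reads were at 4.78 and 5.20 there. IPs and total RNA came from different strains, so strain and precipitation cannot be told apart. The NRDE-3 IPs also differed from the young adult libraries in stage, and the larval pair in the loss of *eri-1* and in food. These cannot be told apart from the Argonaute either.

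*cde-1* antisense RPM was 3.22-fold (2.70 to 3.87) that of total RNA in the mutant HRDE-1 IP and 3.42-fold (2.81 to 4.17) in its control. In the WAGO-1 IP it was 4.15-fold (3.49 to 4.95) in the mutant and 3.22-fold (2.67 to 3.91) in the control. The median gene, at 4.49 in the mutant and 4.77 in the control, lay above the interval of *cde-1* in both HRDE-1 pairs. In the WAGO-1 pairs the median gene was at 2.54 in the mutant, below the interval of *cde-1*, and at 3.94 in the control, above it. Among the controls the HRDE-1 and WAGO-1 IPs did not differ beyond counting error for *cde-1* (79.6 RPM in HRDE-1 and 75.0 in WAGO-1, ratio 1.06, 0.917 to 1.23), while in the mutant the WAGO-1 IP was the higher (117 RPM, and 90.8 in HRDE-1, ratio 1.29, 1.16 to 1.43). The embryo and *eri-1* NRDE-3 IPs were the lowest libraries for *cde-1* antisense reads in both genotypes, and in the controls their difference was within counting error (ratio of *eri-1* over embryo 1.50, 0.899 to 2.57).

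*pup-2* differed between the IPs of young adults. Its antisense RPM in the HRDE-1 IP was 3.28-fold (2.38 to 4.60) that of total RNA in the mutant and 3.73-fold (2.33 to 6.13) in the controls. In the WAGO-1 IP it was 0.545-fold (0.337 to 0.871) in the mutant and 1.55-fold (0.910 to 2.67) in the controls. Both WAGO-1 intervals lay below the median gene, at 2.54 in the mutant and 3.94 in the controls. *pup-2* was itself under the filter there, with 32 reads in the IP and 48 in total RNA in the mutant. The controls had 36 and 26. Its place against these medians, taken over genes that the filter favoured for high IP counts, therefore cannot be judged. Without a filter, both intervals lay below the ratio of all antisense protein-coding reads, 5.20 in the mutant and 6.20 in the controls. In the HRDE-1 pairs the median gene, at 4.49 and 4.77, was inside the interval of *pup-2*. All antisense protein-coding reads lay above that interval in the mutant, at 4.78, and inside it in the controls, at 5.53. In the controls the HRDE-1 IP held 2.41-fold (1.58 to 3.73) the antisense RPM of the WAGO-1 IP, and the remaining 4 libraries, between 3.61 and 6.29 RPM, did not differ from their neighbours in order beyond counting error. In the mutant the order was the HRDE-1 IP at 28.2, the embryo NRDE-3 IP at 14.1, the *eri-1* NRDE-3 IP at 10.4, total RNA at 8.61 and the WAGO-1 IP at 4.70 RPM, with the middle 3 not distinct from their neighbours among themselves.

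Per length, antisense levels in the HRDE-1 IPs were highest on *pup-3*, with 35.4 RPKM in *cde-1(tm936)* and 69.1 in the control. *cde-1* had 18.9 RPKM in *cde-1(tm936)* and 16.6 in the control, and *pup-2* 12.1 in *cde-1(tm936)* and 6.52 in the control. In the WAGO-1 IPs *pup-3* had 25.7 RPKM in *cde-1(tm936)* and 45.9 in the control, *cde-1* 24.3 in *cde-1(tm936)* and 15.6 in the control, and *pup-2* 2.02 in *cde-1(tm936)* and 2.71 in the control. *pup-3* and *cde-1* were thus nearly level in the mutant WAGO-1 IP and far apart in its control. In total RNA *cde-1* led in the mutant with 5.87 RPKM (4.85 in N2), whereas *pup-3* had 2.17 in *cde-1(tm936)* and 5.50 in N2. *pup-2* had 3.70 RPKM in mutant total RNA and 1.75 in N2. In the mutant embryo NRDE-3 IP *pup-2* was above 95.4% of all genes per length, and in its control above 76.2%.

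Over the 10 libraries the antisense log2(RPM + 1) values of *cde-1* and *pup-3* followed each other (Pearson's r of 0.926), whereas r was 0.217 for *cde-1* and *pup-2* and 0.327 for *pup-2* and *pup-3*. These are descriptions over 10 libraries that share the split between IPs and total RNA, and genes with a similar split score as high. The 3 genes most like *cde-1* among 7680 with at least 200 antisense reads in all were *Y47G6A.30*, *bath-24* and *Y23H5A.2* (r of 0.993, 0.992 and 0.991). Those most like *pup-2* were *hda-1*, *atp-2* and *pqn-59* (0.963, 0.961 and 0.947), and those most like *pup-3* were *F54F2.7*, *R05D3.8* and *pnc-1* (0.993, 0.993 and 0.992). For sense reads on *cde-1*, among 9484 genes, they were *Y41D4B.11*, *dbl-1* and *him-18* (0.958, 0.953 and 0.953).

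The other terminal nucleotidyltransferases were read from a list of 7 genes, *gld-2*, *gld-4*, *mut-2*, *usip-1*, *pap-1*, *pap-2* and *pap-3*. In the HRDE-1 IPs all 7 had at least 50 antisense reads in either library, and 3 were at least 2-fold higher and 2 at least 2-fold lower, beside 27.7% and 12% of all genes. *gld-4*, a cytoplasmic poly(A) polymerase of the germ line, had 1151 antisense reads in *cde-1(tm936)* and 115 in the control, a ratio of 6.21 (5.13 to 7.59). *gld-2*, the germline poly(A) polymerase, had 1440 in *cde-1(tm936)* and 251 in the control (3.56, 3.11 to 4.09), and *usip-1*, which uridylates U6 snRNA, had 340 in *cde-1(tm936)* and 88 in the control (2.40, 1.89 to 3.07). The germline poly(A) polymerases thus lay further above the median gene, at 1.29, than *pup-2* did at 1.86. *pap-2* had 178 antisense reads in *cde-1(tm936)* and 233 in the control (0.474, 0.388 to 0.579), and *pap-3* had 525 in *cde-1(tm936)* and 694 in the control (0.470, 0.418 to 0.527), close to the 0.512 of *pup-3*.

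In the other comparisons fewer genes of this list had enough reads. None of 3 passed 2-fold in total RNA and none of 3 in the WAGO-1 IPs. In the embryo IPs 1 of 2 was higher, *gld-2* (102 reads in *cde-1(tm936)* and 26 in the control, 2.08, 1.34 to 3.33). In the *eri-1* IPs 1 of 3 was higher, *usip-1* (65 reads in *eri-1;cde-1* and 26 in *eri-1*, 2.31, 1.45 to 3.80). Both genes reached 50 reads only in the mutant library, so the filter favoured a higher call. In sense reads *gld-2* was lower in the embryo IPs (0.441) and *mut-2*, which adds UG repeats to RNA targeted by RNAi, in the WAGO-1 IPs (0.434), beside 91.3% and 14.5% of all genes. Each of them reached 50 sense reads only in the control library, so the filter favoured a lower call. The median gene of the embryo IPs, at 0.269, was lower than *gld-2*. No other listed gene passed 2-fold in sense in any pair.

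A second list held 10 genes whose products act with these enzymes or in the same small RNA pathways, and in no comparison was any of them at least 2-fold lower in antisense reads. The count at least 2-fold higher was 2 of 8 tested in total RNA, 4 of 6 in the embryo IPs, 6 of 8 in the *eri-1* IPs, 6 of 9 in the HRDE-1 IPs and 3 of 9 in the WAGO-1 IPs, beside 22.8%, 27.1%, 44.6%, 27.7% and 15.5% of all genes. All 4 in the embryo IPs, and *drh-3* in the *eri-1* IPs, reached 50 reads only in the mutant library. The filter therefore favoured a higher call for them, and the list was chosen with earlier results of these data known. The median ratios of the tested members were 1.50, 2.59, 3.32, 2.63 and 1.37, beside 1.49, 1.22, 1.78, 1.29 and 1.06 for all genes. *csr-1*, whose Argonaute binds siRNAs that CDE-1 uridylates, was higher in all 5.

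*csr-1* had 5322 antisense reads in the *cde-1(tm936)* HRDE-1 IP and 1025 in its control (ratio 3.22, 3.01 to 3.45), and 2056 in the *cde-1(tm936)* WAGO-1 IP and 387 in its control (4.46, 4.00 to 4.98). Its ratio was 4.67 in the *eri-1* IPs, 2.40 in the embryo IPs and 2.16 in total RNA. Other listed genes were past 2-fold in some pairs and not in others. *ego-1*, an RNA-dependent RNA polymerase, had ratios of 4.16 in the *eri-1* IPs, 2.88 in the HRDE-1 IPs and 2.76 in the WAGO-1 IPs. *drh-3*, a Dicer-related helicase, had 5.69 in the *eri-1* IPs and 2.77 in the HRDE-1 IPs, but 1.54 in total RNA and 1.48 in the WAGO-1 IPs. *wago-4*, a germline Argonaute, had 5.62 in the *eri-1* IPs and 2.90 in the embryo IPs. Its ratio was 1.42 in total RNA, 1.54 in the HRDE-1 IPs and 0.940 in the WAGO-1 IPs. *ekl-1* had 1.25 in both the HRDE-1 and the WAGO-1 IPs, and under 50 antisense reads in the other libraries.

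*disl-2*, which codes for the exonuclease that degrades uridylated RNA (also named *susi-1*), had 76 antisense reads in the *cde-1(tm936)* embryo IP and 11 in its control (3.66, 1.93 to 7.63), close to *pup-2* in that pair. Its ratio was 2.70 in the *eri-1* IPs and 2.64 in the HRDE-1 IPs. Among partners of the germline poly(A) polymerases, *gld-3* was higher in total RNA (2.54) and in the WAGO-1 IPs (2.09), *rnp-8* in the embryo (3.32) and HRDE-1 (2.87) IPs, and *gls-1* in the *eri-1* (2.72) and HRDE-1 (2.33) IPs. *lin-28*, a partner of PUP-2, had under 50 antisense reads in every library. In sense reads *ekl-1* (0.302) and *disl-2* (0.325) were lower in the embryo IPs, *ego-1* (0.474) and *rnp-8* (0.393) in the *eri-1* IPs, and *drh-3* (0.449), *gld-3* (0.461) and *gls-1* (0.482) in the WAGO-1 IPs. These were 2 of 2, 2 of 10 and 3 of 9 tested, beside 91.3%, 11.2% and 14.5% of all genes, and both embryo values were above the median gene's 0.269. *ekl-1* reached 50 sense reads only in the control embryo library, so the filter favoured a lower call for it.

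**Figure D4:**
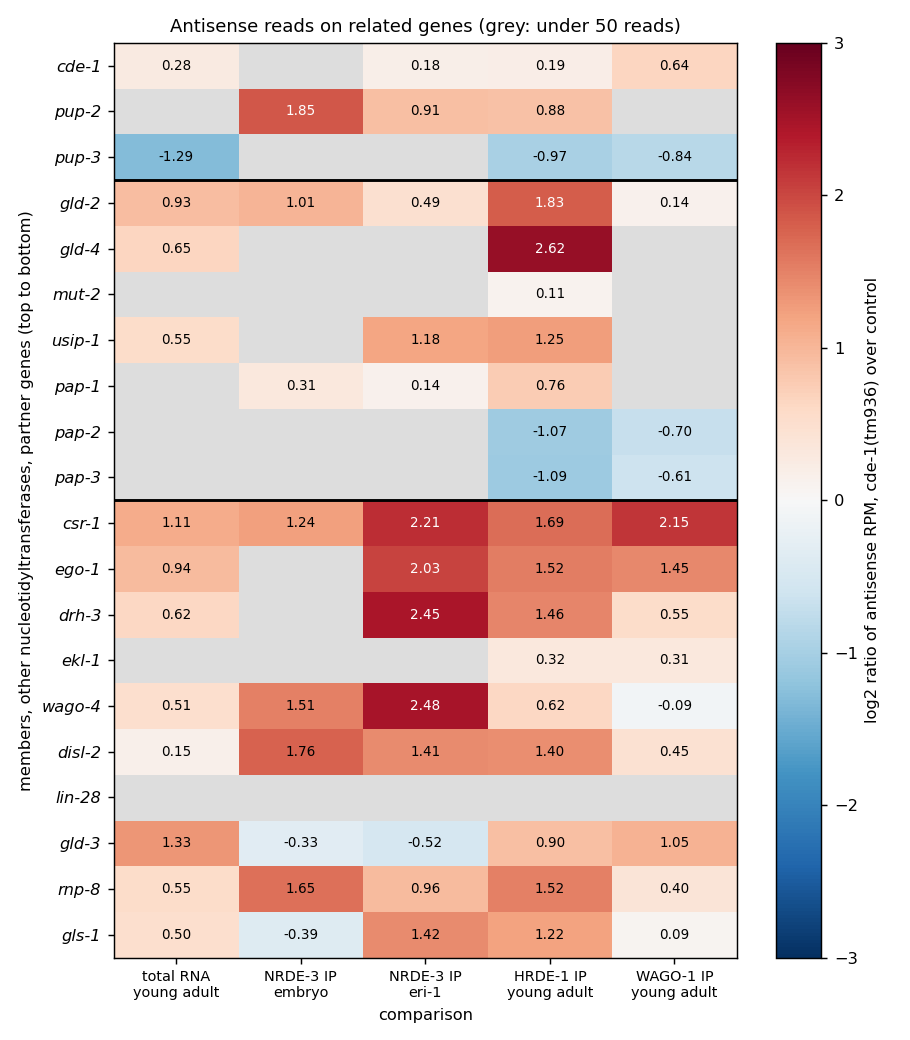
Log2 ratio of antisense RPM with 1 read added, *cde-1(tm936)* over control (colour and number), for the 3 genes (top), 7 other nucleotidyltransferase genes (middle) and 10 partner genes (bottom) in the 5 comparisons. Grey cells had under 50 reads in both libraries; *csr-1* was above 1 in every comparison, and *pup-3*, *pap-2* and *pap-3* were below 0 wherever they had enough reads.

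Antisense reads were also counted on the genes within 20 kb of *cde-1*. In total RNA 3 of 5 tested were at least 2-fold higher, beside 22.8% of all genes, *gars-1* (2.47), *ulp-1* (2.31) and *hira-1* (2.17). In the HRDE-1 IPs 4 of 10 were, beside 27.7% of all genes, *hira-1* (3.83), *gars-1* (2.45), *ulp-1* (2.43) and *prp-19* (2.15). In the *eri-1* IPs the same 4 of 5 were higher, beside 44.6% of all genes, *hira-1* (5.78), *gars-1* (4.30), *ulp-1* (3.80) and *prp-19* (2.73), and *K10D2.8* was lower (0.405). These 4 reached 50 antisense reads only in the mutant library, and *K10D2.8* only in the control. In the WAGO-1 IPs 0 of 5 passed 2-fold, and none had enough reads in the embryo IPs. *cde-1* itself, at 1.21, 1.14 and 1.14 in total RNA and the *eri-1* and HRDE-1 IPs, lay within the range of the tested neighbours, which included *emb-8* at 0.903 in total RNA and *oxy-4* at 0.822 in the HRDE-1 IPs.

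Of the 9 genes within 20 kb of *pup-3*, 2 had enough antisense reads in total RNA, 1 in the embryo IPs, 2 in the *eri-1* IPs, 4 in the HRDE-1 IPs and 3 in the WAGO-1 IPs. *tom-1*, the tomosyn gene, was lower in the *eri-1* IPs (0.414) and in the HRDE-1 IPs (1871 reads in *cde-1(tm936)* and 2762 in the control, ratio 0.421), beside 17.5% and 12% of all genes. *rpa-4* was higher in total RNA (3.17) and in the *eri-1* (5.34), HRDE-1 (3.27) and WAGO-1 (4.14) IPs, beside 22.8%, 44.6%, 27.7% and 15.5% of all genes. These are too few genes to set against those shares, and *rpa-4* reached 50 control reads in the HRDE-1 pair alone. In sense reads 1 of the 9 could be tested in the WAGO-1 IPs, *F59A3.2*, and it was lower (0.484). In that pair 14.5% of all genes were lower and the median gene was at 0.749. *F59A3.2* had 45 sense reads in *cde-1(tm936)* and 78 in the control, so the filter favoured a lower call.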

How the data were processed

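Small RNAs were cloned in a way that does not need a 5′ phosphate, and 1 library was made per genotype and fraction. The authors kept clean reads of 18 to 30 nt, mapped them to WS243 transcripts with Bowtie2 and deposited whole-number counts of sense and antisense reads per transcript, without normalization. Rows of one gene can share reads, but each of the 3 genes studied had 1 row. Rows without a class or gene (1 to 3 in a library) were dropped, which removed at most 0.00152% of its reads. The 26S rRNA tail table was not used here.

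RPM took as denominator the sum of counts without sense rRNA reads, with the columns of 7 of 24 rRNA features exchanged because they were read mostly in the opposite column. Intervals (95%) are exact Poisson for a count, exact binomial for a share, exact conditional binomial for a ratio, and conditional maximum likelihood for an odds ratio. Where 1 library had 3 or fewer reads the ratio is given with its interval, although a bound at 3 reads had been planned, and where both had, no ratio is given. Genes were counted at 2-fold with at least 50 reads in either library and 1 read added. RPKM used exon lengths of Ensembl release 115 (WBcel235), in which 20231 of 20535 protein-coding genes were matched.

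The members, lists and alternatives were chosen with earlier results of these data known, and the germline markers after the files were read. Named genes were the 3 members, listed genes and neighbours within 20 kb past 2-fold, and the 3 genes most correlated with each member. The genes with lower sense ratios than *cde-1* were named after their values were seen. Alternatives were other denominators, TMM (edgeR 4.0.16, R 4.3.3) and median-of-ratios scaling, other filters, 10 reads added, and Spearman correlation. Scripts (Python 3.11.15 with scipy 1.17.1, pandas 2.3.3, numpy 2.4.6 and matplotlib 3.10.9) were tested on simulated data.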

Additional observations from a re-analysis of the deposited data

Results flagged for a closer look

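For 5 of the 6 sets of reads the ratio of RPM, *cde-1(tm936)* over control, lay above 1 in some comparisons and below 1 in others. The difference between comparisons was not tested, since each has 1 library per genotype. Antisense reads on *cde-1* had a ratio of 1.56 in the WAGO-1 IPs and 0.577 in the embryo NRDE-3 IPs, where the interval (0.310 to 1.08) spanned 1 and the ratio over all counted reads was 1.26. Sense reads on *pup-2* had 1.09 in the *eri-1* NRDE-3 IPs and 0.397 in the embryo IPs. Antisense reads on *pup-2* had 3.90 in the embryo IPs and 0.746 in the WAGO-1 IPs. Sense reads on *pup-3* had 1.54 in the *eri-1* IPs, with 10 reads in *eri-1;cde-1* and 6 in *eri-1*, and 0.450 in the WAGO-1 IPs. Antisense reads on *pup-3* had 2.38 in the embryo IPs, with 9 reads in *cde-1(tm936)* and 2 in the control, and 0.396 in total RNA.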

How the results depend on the processing

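TMM and median-of-ratios scaling moved the median gene by over 0.1 on the log2 scale in all pairs but sense reads in total RNA and antisense reads in the WAGO-1 IPs, by up to 1.90 for sense reads in the embryo IPs and by -0.75 for antisense reads in the *eri-1* IPs (TMM). With TMM, then median-of-ratios, the *cde-1* sense ratio was 0.113 and 0.114 in the embryo IPs, 0.300 and 0.300 in the *eri-1* IPs and 0.366 and 0.370 in the WAGO-1 IPs. The *cde-1* antisense ratio was 0.822 and 0.810 in total RNA, 0.677 and 0.633 in the *eri-1* IPs and 0.890 and 0.875 in the HRDE-1 IPs, the *pup-2* antisense ratio 1.14 and 1.06 in the *eri-1* IPs, and the *pup-3* antisense ratio 0.399 and 0.392 in the HRDE-1 IPs. The *pup-2* sense ratio in the embryo IPs turned round, to 1.48 and 1.49. Over all counted reads the embryo antisense ratios were 1.26 for *cde-1* and 8.52 for *pup-2*. Over miRNA reads the WAGO-1 antisense ratios were 1.34 for *cde-1* and 0.480 for *pup-3*. The *cde-1* sense ratio in the *eri-1* IPs was 0.163 over antisense protein-coding reads and 0.292 over sense protein-coding reads, a denominator chosen after seeing the data. The cause of these shifts was not tested.

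Counts of genes past 2-fold follow in the order total, embryo, *eri-1*, HRDE-1 and WAGO-1. Sense genes at least 2-fold lower were 128, 1260, 876, 213 and 640 with at least 50 reads, 284, 5246, 2350, 929 and 1419 with at least 10, 61, 189, 219, 42 and 168 with at least 200, and 660, 10849, 4293, 3015 and 3340 without a filter. Antisense genes at least 2-fold higher were 849, 428, 1315, 1944 and 796 with at least 50 reads. For total, embryo, *eri-1* and WAGO-1 they were 2510, 1154, 3106 and 1208 with at least 10, 213, 105, 298 and 461 with at least 200, and 4852, 1787, 4583 and 2166 without a filter. Antisense genes at least 2-fold lower were 258, 341, 517, 841 and 842 with at least 50 reads, 611, 1400, 1541, 1788 and 1903 with at least 10, 92, 68, 159, 379 and 394 with at least 200, and 1150, 5356, 4014, 4027 and 4061 without a filter. Filters change how many genes are tested. With 10 reads added, 85 sense genes were lower in total RNA and 256 antisense genes higher in the embryo IPs. With TMM, then median-of-ratios, sense genes lower were 76 and 73 in the embryo, 210 and 210 in the *eri-1* and 183 and 175 in the WAGO-1 IPs. Antisense genes higher were 223 and 210 in total RNA, 634 and 560 in the *eri-1* and 1277 and 1224 in the HRDE-1 IPs, and lower 532 and 546, 817 and 859, and 1263 and 1304. By Spearman correlation the 3 genes most like a member shared 0 (*cde-1*), 1 (*pup-2*) and 0 (*pup-3*) with the antisense lists and 1 with the sense list of *cde-1*.

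No paired analysis was possible because each genotype has 1 library within a comparison, and a fit across the 5 comparisons, which differ in stage and fraction, was not made. Low counts limit the sense ratios of *pup-3* (2 to 36 reads in a library) and the embryo ratios.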
